A study of Sus scrofa with 48 samples.

Results

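The intermediate filament genes of pig longissimus muscle were described over 2 lines of Large White pigs bred in opposite directions for residual feed intake (RFI). The genes were DES, VIM, NES, SYNM, SYNC, NEFH, NEFM, NEFL, LMNA and PLEC, the last being a linker of filaments rather than a filament protein. They are 10 of 45222 distinct gene or sequence names on the array. Probes were taken when the array named them by one of these symbols, and were kept when their spot was well above background on 12 or more arrays. This gave 29 matched probes, of which 25 were kept, among 60305 distinct probes on the array and 42125 that passed the same limit. The kept probes were thus chosen by the measured signal, through the number of arrays on which it exceeded background, and they are not all probes of these genes.

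Muscle RNA of 48 barrows was hybridised singly, each on a one-colour Agilent array, in 4 groups of 12. The groups were low RFI pigs on the HF diet (HF_RFIneg), high RFI pigs on the HF diet (HF_RFIpl), low RFI pigs on the LF diet (LF_RFIneg) and high RFI pigs on the LF diet (LF_RFIpl). The HF diet was rich in fat and fiber, the LF diet was low in both, and both were offered without restriction. All pigs were purebred and male castrates, their ages were not given in the sources used here, and the line stands for the selection history of its animals rather than for a single allele. A low RFI pig eats less than its growth and body composition predict, which is the more feed efficient direction.

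Intermediate filaments are ropes of coiled protein chains that hold the contents of a cell in register. In a mature muscle fibre the desmin network ties neighbouring Z-discs to each other, to the membrane and to the nuclei, with synemin, syncoilin and plectin as linkers, while A-type lamins line the nuclear envelope. Vimentin is the filament of mesenchymal cells, leukocytes and immature muscle cells, nestin marks immature muscle cells and the junctions of adult fibres, and the 3 neurofilament subunits are best known as the filaments of large nerve axons.

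The letters of the probes bear on which of the values below are separate measurements, so those that decide this are shown first, 5′ to 3′ as the array files give them. The files do not give the strand of the probes whose name starts with O, and it was not established here. The first pair are desmin probes, and the capitals mark the 21 bases that both hold.
DES A_72_P601893: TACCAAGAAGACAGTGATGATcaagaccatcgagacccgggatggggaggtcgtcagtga
DES A_72_P684426: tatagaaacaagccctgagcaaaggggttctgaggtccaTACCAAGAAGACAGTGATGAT
A nestin sequence stood on the array under a pair of probe names (A_72_P052631 and O7015), so these 2 values are repeats of a single measurement.
NES A_72_P052631: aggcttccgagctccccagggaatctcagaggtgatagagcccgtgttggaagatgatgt
The 2 neurofilament heavy probes shown next were detected on very different numbers of arrays, 8 and 48, and neither shares a run of 20 bases with any other probe.
NEFH A_72_P444295: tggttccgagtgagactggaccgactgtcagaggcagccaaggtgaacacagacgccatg
NEFH O12714: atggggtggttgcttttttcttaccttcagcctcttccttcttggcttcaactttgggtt
The NEFL probe with the most detections, which stood for its gene, follows.
NEFL A_72_P683949: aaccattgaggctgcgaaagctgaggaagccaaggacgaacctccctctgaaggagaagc

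A search of all 60305 probes for shared runs of 20 bases or more found 2 further cases. The VIM probe O2889 has the same 60 bases as a probe named only by a locus number, which RefSeq lists as VIM. After subtraction of group means these 2 probes correlated at 0.98 across the 48 pigs. The NEFM probe O2550 has the same 60 bases as an unnamed probe, A_72_P508636, with a correlation of 0.87, and shares 37 bases with a further unnamed probe that did not pass the limit. These repeats show how well a spot reproduces, and they are not further members. Otherwise 23 of the 29 probes shared no such run.

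The signal below is log2 of the processed spot signal minus the mean of the tested probes on that array, so a value of 0 is an average tested probe. Values are compared within a probe only. A difference between lines is high RFI minus low RFI, averaged over both diets, from limma fitted to the means of the 4 groups, its p-values being adjusted by Benjamini-Hochberg over all 42125 tested probes. Processed signal medians of the arrays ranged from 52.8 to 107.9, and the share of spots well above background from 59.2% to 74.2%. No spot was saturated. Each of the 6 slides held 2 arrays of every group. Muscle identity was checked on 13 fibre markers such as ACTA1, CKM and TTN, which were all well above background on all 48 arrays. The mean of this list lay between 8.43 and 9.17 in every pig. In such whole-tissue RNA, fewer cells of a type and less RNA per cell cannot be told apart.

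Detection differed between the members and between probes of the same gene. The 4 DES, 7 NES and 3 of the 4 LMNA probes and the single VIM, SYNM, SYNC and PLEC probes were well above background on all 48 arrays, as was NEFH O12714. All other neurofilament probes fell short of this on some arrays. The counts by group differed in order between these neurofilament probes. NEFH A_72_P433164 passed on 1 of 12 arrays in HF_RFIneg, 6 in HF_RFIpl, 3 in LF_RFIneg and 9 in LF_RFIpl. NEFM O2550 passed on 1, 1, 4 and 8 arrays in the same order of groups. For the light subunit, NEFL A_72_P564519 ran the other way, on 9, 7, 7 and 3 arrays, as did NEFL A_72_P098471 on 9, 8, 6 and 3. NEFL A_72_P683949 passed on 12, 10, 9 and 9. Among the NEFL probes not kept, A_72_P366683 passed on 3, 2, 0 and 2, and A_72_P215782 on 0, 1, 1 and 1. The kept probes nearest the limit were NEFM O2550 with 14 arrays and NEFH A_72_P433164 with 19, and the nearest below it were NEFH A_72_P444295 with 8 arrays and NEFL A_72_P366683 with 7. Of those 8 arrays of NEFH A_72_P444295, 0 were from low RFI pigs. The detection counts chose the probes, so they are given as a description with no test.

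**Figure D1:**
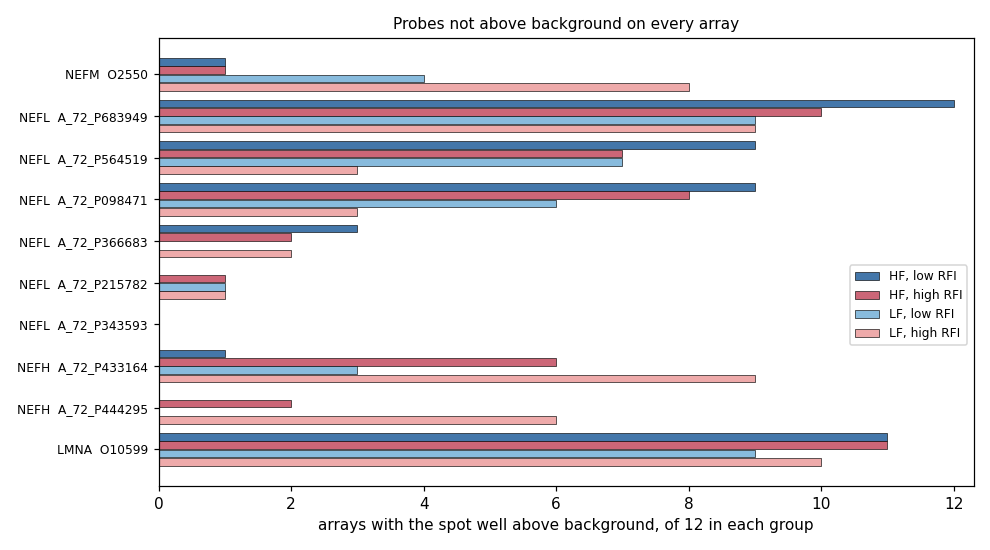
Number of arrays, of 12 in each line and diet group, on which the spot was well above background, for the 10 probes that did not reach this on all 48 arrays. NEFH A_72_P433164 and NEFM O2550 were detected most often in LF_RFIpl (9 and 8 arrays), whereas NEFL A_72_P564519 was detected least often there (3 arrays).

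Over the lines, 3 of the 25 kept probes passed the test, all 3 higher in high RFI pigs, against 16.4% of all tested probes in either direction and 6.57% in the higher direction. The share of members, 12%, was below the first and above the second of these, and with 3 probes it says nothing particular about these genes. These were VIM O2889, NEFM O2550 and NEFH A_72_P433164. The gap of the last was known before the genes were chosen, so its pass is no evidence of its own. The difference was above 0 in 15 member probes and below 0 in 10, with a median of 0.08, beside a median of -0.03 over all tested probes. Of all tested probes 41.8% had a difference above 0. All 7 NES probes are among the 15, and they are not separate observations. The NEFM and NEFH probes entered largely through the high RFI line (9 of 14 and 15 of 19 arrays), so the count is a description of the kept probes. Both also entered mostly on the LF diet, as their counts by group above show.

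The desmin network of the fibre did not pass the test in any of its probes. DES A_72_P177466, for the main filament of the mature fibre, ranged from 9.12 to 9.66 (median 9.39) in HF_RFIneg, from 9.07 to 9.54 (median 9.33) in HF_RFIpl, from 9.22 to 9.68 (median 9.41) in LF_RFIneg and from 9.19 to 9.63 (median 9.29) in LF_RFIpl. The 4 groups overlapped over most of their range. Its line difference was -0.08 ± 0.05 (SE, n = 24 pigs per line, limma adjusted p = 0.213), with a 95% interval from -0.18 to 0.01, and it turned to 0.03 with quantile normalization (limma adjusted p = 0.547). The other DES probes differed by -0.11, -0.11 and -0.06, with adjusted p-values from 0.338 to 0.677. The 4 DES probes followed each other across pigs, with correlations of 0.71 to 0.98 after subtraction of group means.

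The linkers of the desmin network were as close between the lines. SYNM, the large filament protein that joins desmin to the membrane skeleton, ranged from 6.33 to 7.01 in low RFI pigs and from 6.23 to 7.19 in high RFI pigs. Its difference was 0.02 ± 0.06 (SE, limma adjusted p = 0.883). SYNC, which binds desmin to the dystrophin complex, had the narrowest spread of the kept probes, with an SD of 0.10 over the 48 pigs, and a difference of 0.00 with a 95% interval from -0.06 to 0.07. PLEC, the cytolinker that anchors filaments at Z-discs and membranes, had a median of -2.07 in low RFI and -2.21 in high RFI pigs. The PLEC difference was -0.11 ± 0.06 (SE, limma adjusted p = 0.230). For these 4 genes the intervals allow changes of at most about 0.26 on the log2 scale, the end farthest from 0 being the lower one of DES A_72_P684426 (-0.26 to 0.05).

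VIM was higher in the high RFI line. The signal of VIM ranged from 4.38 to 5.22 (median 5.01) in HF_RFIneg and from 4.81 to 5.50 (median 5.12) in LF_RFIneg. The HF_RFIpl pigs ranged from 4.63 to 6.67 (median 5.24) and the LF_RFIpl pigs from 4.60 to 5.68 (median 5.43). The lines overlapped, with 20 of 24 high RFI pigs above the low RFI mean and 6 of them above every low RFI pig. The difference was 0.30 ± 0.10 (SE, n = 24 per line, limma adjusted p = 0.0314), or 1.23-fold. Neither diet passed alone, the HF pigs differing by 0.37 (limma adjusted p = 0.0923) and the LF pigs by 0.22 (limma adjusted p = 0.431). The repeat spots with the same letters gave 0.31 (limma adjusted p = 0.0224). A single HF_RFIpl pig, replicate 6, held the highest VIM signal, and without it the difference was 0.23 (limma adjusted p = 0.0380). Leaving out HF_RFIneg replicate 11 gave 0.27 with a limma adjusted p of 0.0514, the only one of the 48 single omissions that ended the call. The call also ended with no filter on dim probes, where the difference was 0.30 (limma adjusted p = 0.0612).

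NES, the partner of vimentin and desmin in immature muscle cells and at junctions, did not pass the test in any of 7 probes. NES A_72_P420249 had medians of 4.06 in HF_RFIneg, 4.31 in HF_RFIpl, 3.96 in LF_RFIneg and 4.48 in LF_RFIpl, and all 4 groups overlapped. Its lowest pig was at 3.40 and its highest at 5.15. Its line difference was 0.29 ± 0.12 (SE, limma adjusted p = 0.0901). The differences of all 7 probes were above 0, from 0.13 to 0.31, with limma adjusted p-values from 0.0901 to 0.504. These probes read the same transcript, with correlations of 0.38 to 0.92 across pigs after group means were removed, so their common sign counts as 1 observation.

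LMNA encodes the A-type lamins. LMNA A_72_P302689 ranged from 4.04 to 4.74 in low RFI and from 3.99 to 4.85 in high RFI pigs, a difference of 0.08 ± 0.06 (SE, limma adjusted p = 0.403). LMNA A_72_P117336 and A_72_P548861 differed by 0.09 and 0.11, and O10599 by -0.14, with limma adjusted p-values from 0.298 to 0.424. The LMNA probes followed each other poorly, with correlations across pigs from -0.22 to 0.56 after subtraction of group means.

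**Figure D2:**
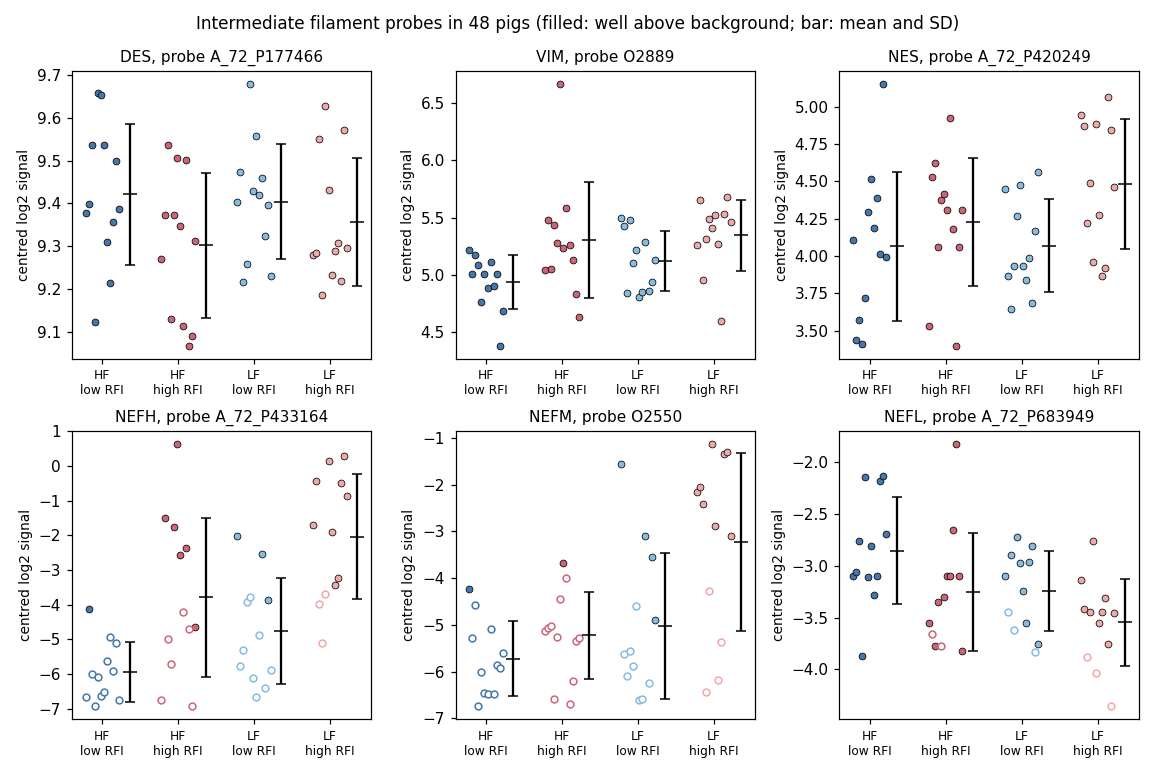
Centred log2 signal of 6 probes in each of the 48 pigs, by diet and line, with filled points for arrays where the spot was well above background and a bar for the mean and SD of each group of 12. VIM was shifted upwards in high RFI pigs with overlap. Most NEFH points of low RFI pigs, and most NEFM points in every group but LF_RFIpl, are open, near background.

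Neurofilament heavy chain gave the widest gap between the lines, and its values are given as a description. NEFH A_72_P433164 ranged from -6.92 to -4.13 (median -6.04) in HF_RFIneg and from -6.92 to 0.63 (median -4.42) in HF_RFIpl. Pigs of LF_RFIneg ranged from -6.65 to -2.01 (median -5.09) and those of LF_RFIpl from -5.12 to 0.29 (median -1.80). The lines overlapped at the bottom of the range, yet 10 of 24 high RFI pigs lay above every low RFI pig and 21 lay above the low RFI mean. The mean difference was 2.44 ± 0.48 (SE), with 2.15 among HF pigs and 2.72 among LF pigs. On 14 of the 48 arrays the spot was at the value that the scanner software substitutes for signals at background, and such values have no order among themselves, so the size of the difference is approximate. With normexp background correction it was 0.88.

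The other NEFH probes did not resemble each other. NEFH A_72_P444295 was too dim to be kept but was detected on 8 arrays, all of high RFI pigs, 2 in HF_RFIpl and 6 in LF_RFIpl. NEFH O12714, detected on every array, ranged from -2.20 to -1.41 in low RFI and from -2.39 to -1.51 in high RFI pigs. Its difference was -0.03 ± 0.05 (SE, limma adjusted p = 0.771). Its correlation with NEFH A_72_P433164 across pigs was -0.25 after subtraction of group means, and slides accounted for 53.4% of its variance, beside 7.92% for A_72_P433164. Which of these probes follows the NEFH transcript was not tested, and the strand that O12714 reads was not established.

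NEFM, the medium subunit that assembles with the heavy and light chains, had a higher mean in high RFI pigs, but entered the test mostly through them, with 9 of its 14 detections. Its signal ranged from -6.74 to -4.23 (median -5.90) in HF_RFIneg and from -6.69 to -3.68 (median -5.20) in HF_RFIpl. Among LF pigs NEFM ranged from -6.61 to -1.56 (median -5.59) in the low and from -6.44 to -1.14 (median -2.65) in the high RFI line. The groups overlapped, and only 3 of 24 high RFI pigs lay above every low RFI pig. The line difference was 1.15 ± 0.39 (SE, limma adjusted p = 0.0337), with 0.50 among HF pigs (limma adjusted p = 0.607) and 1.80 among LF pigs (limma adjusted p = 0.0621). The repeat spots gave 1.14 (limma adjusted p = 0.0354). NEFM was well above background on 14 arrays and at the substituted background value on 17, so this difference too is approximate. Of the 14 arrays, 8 were in LF_RFIpl, where the signal was highest. The limma p-values here thus describe a probe kept largely through that group and are no separate support for a line difference. It did not pass with no filter on dim probes, at 1.16 (limma adjusted p = 0.0640), or with normexp background correction, at 0.26 (limma adjusted p = 0.0935). The call was narrow, since 7 of the 48 single omissions brought the adjusted p to between 0.0504 and 0.0530, with differences of 1.06 to 1.09. The omitted pigs were replicate 8 of HF_RFIpl, replicates 7, 8 and 10 of LF_RFIneg and replicates 6, 10 and 11 of LF_RFIpl.

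NEFL, the light subunit on which the other chains build, lay on the other side of 0. NEFL A_72_P683949 ranged from -3.87 to -2.13 (median -2.93) in HF_RFIneg and from -3.82 to -1.83 (median -3.33) in HF_RFIpl. The LF groups ranged from -3.83 to -2.72 (median -3.17) in the low and from -4.35 to -2.76 (median -3.45) in the high RFI line. All groups overlapped, and 18 of 24 low RFI pigs were above the high RFI mean. The difference was -0.35 ± 0.14 (SE, limma adjusted p = 0.0672), and those of the other kept NEFL probes were -0.66 (limma adjusted p = 0.0712) and -0.51 (limma adjusted p = 0.168). NEFL A_72_P683949 crossed the threshold with the slide as a block (limma adjusted p = 0.0467) and without the brightest array (limma adjusted p = 0.0158), with the same sign. The mean of the 3 kept NEFL probes passed when each gene symbol was tested as 1 value, with -0.51 ± 0.17 (SE, limma adjusted p = 0.0358), but these probes did not follow one another. A_72_P683949 correlated across pigs at 0.02 with A_72_P098471 and at -0.09 with A_72_P564519 after subtraction of group means, while the latter pair correlated at 0.84. With normexp background correction the difference of A_72_P564519 was -0.19 (limma adjusted p = 0.0210) and that of A_72_P098471 was -0.20 (limma adjusted p = 0.0161), whereas A_72_P683949 did not pass, at -0.13 (limma adjusted p = 0.0994). In the deposited log2 table, where A_72_P683949 alone of the 3 was analysed, its difference was -0.16 (limma adjusted p = 0.156).

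**Figure D3:**
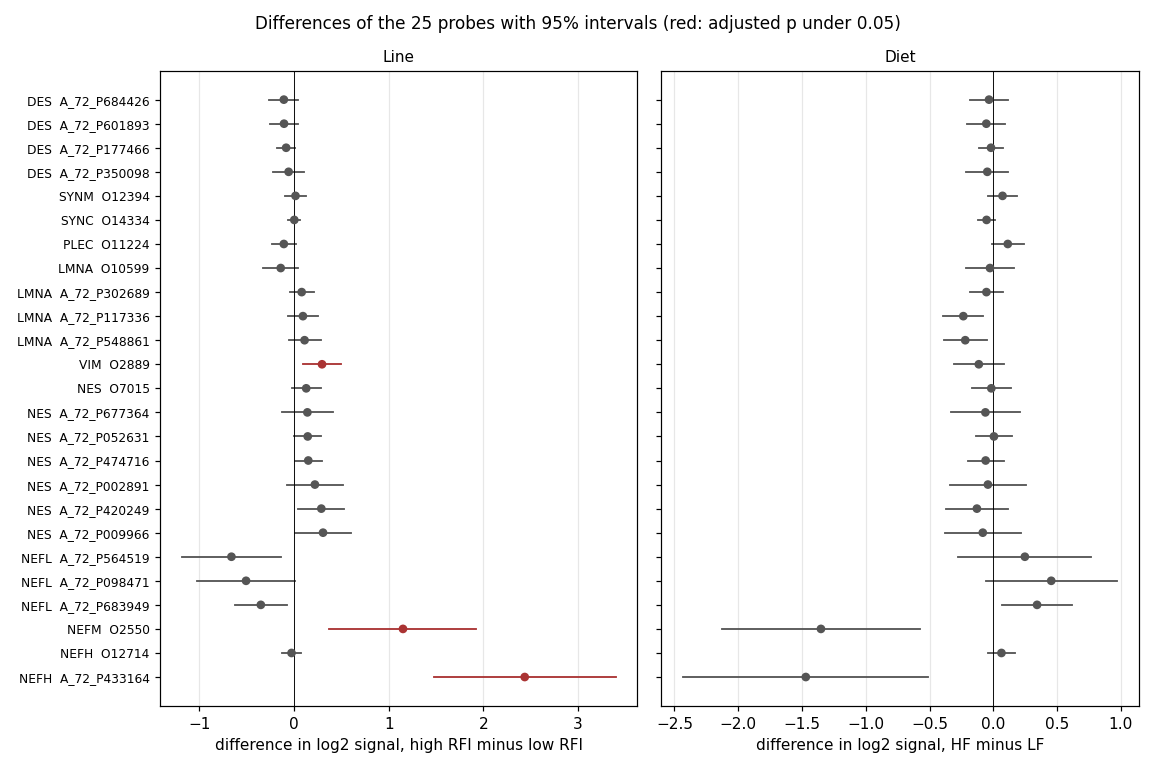
Differences in log2 signal of the 25 kept probes with 95% intervals, high RFI minus low RFI on the left and HF diet minus LF diet on the right. In the line panel VIM (0.30), NEFM (1.15) and NEFH A_72_P433164 (2.44) are marked as past the threshold, the last as a gap known before the genes were chosen, while the NEFL probes lie below 0 and the DES, SYNM, SYNC and PLEC probes lie near 0.

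Within each diet, 0 of the 24 probes other than NEFH A_72_P433164 passed with limma. An unadjusted limma p under 0.05 was found in 4 of the 25 among HF pigs and in 4 among LF pigs. Only NEFH A_72_P433164 was in both sets. The share of all tested probes under this limit was not computed, so these counts are not read as a result about the members. NEFH A_72_P433164 was past the threshold in both diets, which restates its known gap and is read as no further result, beside 6.39% of all tested probes among HF pigs and 2.47% among LF pigs. The interaction of line and diet passed in 0 of 25 member probes and in 0 of all tested probes with limma, and 0 of the 25 had an unadjusted p under 0.05 for it, beside 4.45% of all tested probes. NEFM came nearest among the neurofilament probes, with a line difference 1.30 smaller on the HF than on the LF diet and a 95% interval of that difference from -2.86 to 0.25.

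Between the diets, 0 of the 25 probes passed with limma, beside 0.42% of all tested probes, and 5 had an unadjusted p under 0.05, beside 13.1% of all. Those 5 are named here after their values were seen. NEFM had a signal 1.35 lower on the HF diet (SE 0.39, limma adjusted p = 0.0885) and NEFH A_72_P433164 one 1.47 lower (SE 0.48, limma adjusted p = 0.141). NEFM O2550 was detected on 1 array of HF_RFIneg, 1 of HF_RFIpl, 4 of LF_RFIneg and 8 of LF_RFIpl. NEFH A_72_P433164 was detected on 1, 6, 3 and 9 arrays in that order. Both were kept mostly through LF pigs, so their diet differences are descriptions of the kept probes. The repeat spots of NEFM passed on their own, with -1.66 ± 0.39 (SE, limma adjusted p = 0.0349), so the same 60 bases fell on both sides of the threshold. That pass repeats the NEFM measurement and is not separate support. LMNA A_72_P117336 had a median of 0.86 in HF pigs and 1.14 in LF pigs, a difference of -0.24 ± 0.08 (SE, limma adjusted p = 0.145), and LMNA A_72_P548861 one of -0.22 (limma adjusted p = 0.226). NEFL A_72_P683949 again had the opposite sign to NEFM, 0.34 higher on the HF diet (SE 0.14, limma adjusted p = 0.245). VIM differed by -0.11 ± 0.10 (SE, limma adjusted p = 0.691) and DES A_72_P177466 by -0.02 ± 0.05 (SE, limma adjusted p = 0.924).

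How the members varied together beyond line and diet was examined over the 48 pigs with group means subtracted, for 1 probe of each gene and 45 pairs. Of these, 8 pairs passed a two-sided permutation test after Benjamini-Hochberg adjustment over the 45, 5 with a positive and 3 with a negative correlation. DES, LMNA and SYNM formed a positive triangle. DES correlated with LMNA A_72_P302689 at r = 0.50 (rho = 0.43, permutation p = 0.00039, adjusted p = 0.0125 for r and 0.0357 for rho) and with SYNM at r = 0.45 (rho = 0.41, permutation p = 0.00112, adjusted p = 0.0125). LMNA correlated with SYNM at r = 0.44 (rho = 0.39, permutation p = 0.00177, adjusted p = 0.0125). Without the 2 pigs farthest from the median on the x axis these values were 0.44, 0.40 and 0.39, and 2 of the 3 sides no longer passed (permutation adjusted p = 0.0428 for DES with LMNA and 0.0697 for both pairs with SYNM).

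VIM ran against PLEC, with r = -0.45 (rho = -0.40, permutation p = 0.0012, adjusted p = 0.0125) and -0.35 without the 2 farthest pigs (permutation adjusted p = 0.107). NES and NEFM correlated at r = 0.44 (rho = 0.47, permutation p = 0.00181, adjusted p = 0.0125), and at 0.46 without them (permutation adjusted p = 0.0428), though 17 of the NEFM values are at the substituted background. The other 3 pairs rested on r alone, since the rank correlation did not pass. NEFL with PLEC had r = 0.44 but rho = 0.28 (permutation p = 0.0518, adjusted p = 0.194), and r fell to 0.29 without the 2 farthest pigs. The pairs of NEFH O12714 with VIM (r = -0.49, rho = -0.34) and with LMNA (r = -0.38, rho = -0.34) had adjusted p-values of 0.109 for rho, and include the probe in which slides accounted for 53.4% of the variance. The strand of that probe was not established, so these pairs may not describe the NEFH transcript. All points share the centring of their array.

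**Figure D4:**
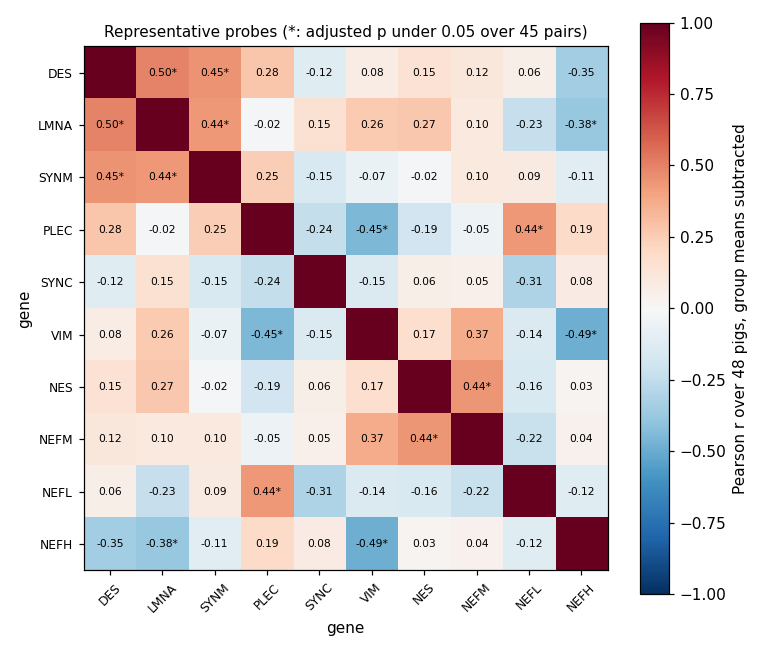
Pearson correlation between the representative probes of the 10 genes over 48 pigs with group means subtracted, NEFH being probe O12714, with an asterisk where the permutation p passed after adjustment over 45 pairs. DES, LMNA and SYNM form a positive block (0.44 to 0.50), and VIM is negative with PLEC (-0.45) and NEFH O12714 (-0.49).

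The 3 probes called between the lines were also paired with each other, a choice made after their values were seen, so these correlations are descriptions with no test. NEFH A_72_P433164 correlated with NEFM at r = 0.56 and with VIM at r = 0.56 (n = 48). VIM and NEFM had r = 0.37. Without the 2 farthest pigs the 3 values were 0.47, 0.43 and 0.34, and with slide means removed as well they were 0.55, 0.58 and 0.40. On 14 arrays NEFH and on 17 NEFM was at the substituted background value, where the order of pigs is not measured.

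**Figure D5:**
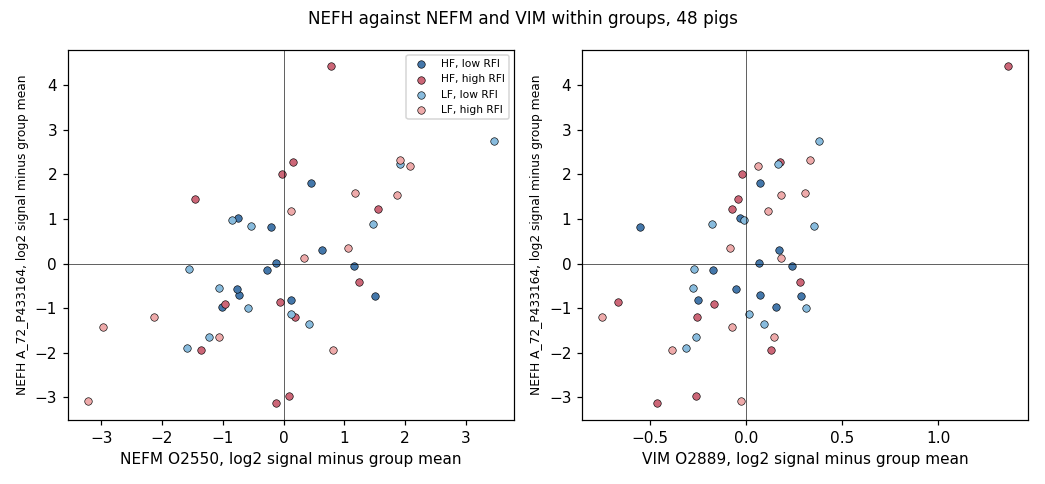
NEFH A_72_P433164 against NEFM (left) and VIM (right) in 48 pigs, each as log2 signal minus the mean of its line and diet group. Both panels rise to the right (r = 0.56 in each), and 1 HF_RFIpl pig stands apart at the upper right of the VIM panel.

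Genes around the filaments were read from lists, each gene by its most often detected probe, and their counts stand beside 6.57% of all tested probes called higher and 9.85% called lower in high RFI pigs. Of 8 tested genes among other intermediate filament genes (keratins, INA, BFSP1 and LMNB2), 0 passed between the lines with limma, with a median difference of -0.09. Plakins and filament linkers had 1 of 12 higher and 3 lower in high RFI pigs. Among these linkers DST, a plakin related to PLEC, was higher by 0.26 (limma adjusted p = 0.000317). The lower ones were PKP2, a desmosomal plaque protein (-0.57, limma adjusted p = 0.00216), DMD, the dystrophin gene (-0.17, limma adjusted p = 0.00429), and DTNA, which encodes a dystrobrevin (-0.14, limma adjusted p = 0.0259).

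Z-disc partners and filament chaperones had 0 of 15 higher and 3 lower. These were CAPN3, the muscle calpain (-0.50, limma adjusted p = 0.00258), NRAP, a myotendinous and Z-disc scaffold (-0.35, limma adjusted p = 0.00623), and LDB3, which binds alpha-actinin (-0.21, limma adjusted p = 0.00121). Among lamin partners 0 of 9 were higher and 2 lower, TMPO (-0.32, limma adjusted p = 0.00732) and SUN2 (-0.18, limma adjusted p = 0.0108), both proteins of the nuclear envelope. Fibre markers had 0 of 13 higher and 3 lower, TTN (-0.26, limma adjusted p = 1.42e-05), MYH2 (-0.12, limma adjusted p = 0.0259) and PYGM (-0.14, limma adjusted p = 0.0445). Between the diets 0 genes of any list passed.

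Markers of other cell types were counted in the same way, with no test of a list as a whole. Of 8 tested macrophage and leukocyte markers, 4 were higher and 0 lower in high RFI pigs, with a list median of 0.41. They were LYZ, lysozyme (1.50, limma adjusted p = 0.00936), CSF1R, a macrophage growth factor receptor (0.94, limma adjusted p = 0.00201), AIF1 (0.43, limma adjusted p = 0.0244) and CD14 (0.30, limma adjusted p = 0.00916). PTPRC, the pan-leukocyte antigen, differed by -0.03 (limma adjusted p = 0.703). CD68 was well above background on 28 arrays. The mean level of the list ranged from -1.54 to -0.24 in HF_RFIneg, from -1.07 to 1.19 in HF_RFIpl, from -1.22 to -0.15 in LF_RFIneg and from -0.92 to 0.48 in LF_RFIpl. Across pigs, after subtraction of group means, this level correlated at 0.73 with VIM and at 0.58 with NEFH A_72_P433164 (n = 48). Its part in the VIM and NEFH differences was not tested.

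Fibroblast markers had 2 of 10 higher, COL1A1 (0.37, limma adjusted p = 0.0152) and COL1A2 (0.32, limma adjusted p = 0.0250), the chains of type I collagen. The list had 0 lower and a median of 0.18, with DCN (-0.06) and LUM (-0.02) below 0. The list level ranged from 1.86 to 2.63 in HF_RFIneg, from 2.06 to 2.85 in HF_RFIpl, from 1.85 to 2.67 in LF_RFIneg and from 1.73 to 2.87 in LF_RFIpl. It correlated at 0.38 with VIM, beside 0.41 for the level of the endothelial list, and the part of either was not tested. Endothelial, smooth muscle and adipocyte lists had 1 gene each higher, of 8, 8 and 7. These were TEK (0.24, limma adjusted p = 0.0473), CSPG4 (0.28, limma adjusted p = 0.0260) and FABP4 (0.32, limma adjusted p = 0.0309). The list medians were 0.06, 0.04 and 0.09, and 0 genes were called lower. Differences below 0 that did not pass included CDH5 (-0.15, limma adjusted p = 0.441) and MYH11 (-0.17, limma adjusted p = 0.525).

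Satellite cell and regeneration markers had 2 of 8 higher and 0 lower, MYH3, the embryonic myosin heavy chain (1.24, limma adjusted p = 0.00906), and MYOD1, a myogenic factor (0.39, limma adjusted p = 0.0219). PAX7, which marks quiescent satellite cells, differed by -0.12 (limma adjusted p = 0.142). The level of this list ranged from -1.26 to -0.46 in HF_RFIneg, from -0.87 to -0.03 in HF_RFIpl, from -1.03 to -0.25 in LF_RFIneg and from -1.29 to 0.26 in LF_RFIpl. It correlated at 0.59 with NES A_72_P420249 and at 0.44 with NEFM (n = 48), and its part in the NEFM difference was not tested. The level of the plakin and linker list correlated with NES A_72_P420249 at 0.62.

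Nerve and Schwann cell markers did not move one way. Of 14 tested, 2 were higher and 2 lower in high RFI pigs. CHRNA1, the acetylcholine receptor subunit of the fibre at the junction, was higher by 0.78 (limma adjusted p = 0.00541) and PMP22 by 0.21 (limma adjusted p = 0.0179). S100B (-0.34, limma adjusted p = 0.0117) and SOX10 (-0.14, limma adjusted p = 0.0401) were lower. The list level ranged from -0.23 to 0.25 in HF_RFIneg, from -0.44 to 0.18 in HF_RFIpl, from -0.54 to 0.31 in LF_RFIneg and from -0.62 to 0.14 in LF_RFIpl. It correlated at 0.56 with NES, 0.26 with NEFM, 0.21 with NEFH A_72_P433164 and -0.02 with NEFL A_72_P683949.

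The genes most alike each member across pigs, were found by correlation over 48 pigs after subtraction of group means. DES was nearest CKM, muscle creatine kinase (0.76), PTMS (0.76) and RPL19 (0.75). VIM was nearest S100A11 (0.85), ARPC5 (0.84) and ANXA2 (0.83). NEFH A_72_P433164 was nearest CLU (0.78), SLC11A1, a metal transporter of macrophage phagosomes (0.77), and NPL (0.71). NEFM was nearest CNOT8 (0.64), S100A14 (0.63) and TSPO (0.63). NES was nearest ST3GAL4 (0.75), AHCYL2 (0.74) and IGSF1 (0.70), and NEFL nearest CCNK (0.66), VTN (0.66) and GLUL (0.62).

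For the remaining members, PLEC was nearest STIM2 (0.71), PORCN (0.70) and RYR1, the calcium release channel of the fibre (0.69), and SYNM nearest BOD1 (0.74), UBR1 (0.73) and ATXN7 (0.72). SYNC was nearest CA9 (0.69), GMPR (0.68) and CDK9 (0.67). LMNA was nearest NUP188 (0.78), SNX1 (0.75) and EIF4A1 (0.71), and NEFH O12714 nearest CSF2RB (0.78), MC1R (0.76) and GAL3ST4 (0.75). These values are descriptions, and the pigs share slides and array centring.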

How the data were processed

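RNA of longissimus muscle from 48 pigs was measured on one-colour arrays. The authors deposited spot intensities made with Agilent Feature Extraction 10.7.3.1, per the file headers, in which the software had already subtracted background, and a table of log2 values (log2 median spot signal minus the array median, 34472 probes), which served as an alternative. The submitters' notes name R 2.10.0. Here log2 processed signal was taken, control and outlier spots were left out, spots of a probe were averaged, probes well above background on fewer than 12 arrays were dropped, and each array was centred by subtracting its mean over tested probes. The 4 groups were fitted in limma 3.58.1 (R 4.3.3), and p-values adjusted by Benjamini-Hochberg were called under 0.05. Correlations used 100000 permutations (numpy 2.4.6, Python 3.11.15), or 10000 with pigs left out. The number of arrays limits precision.

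The genes, lists and tests were chosen with earlier results of these data known. Named were every member, member probes that passed any test or opposed the gene's main probe, up to 4 list genes with the smallest adjusted p among those called between lines, and the 3 most alike genes. A gene's main probe was the one most often above background. Gene names came from the arrays, with RefSeq symbols used to exclude unnamed sequences from the most alike genes. No genome was used, so no positions are given. The omission of each pig in turn and the pairing of the 3 called probes were added after seeing the data. Some list genes and probe sequences are not reported here.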

Additional observations from a re-analysis of the deposited data

How the results depend on the processing

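Of the 25 member probes, 3 were called between the lines. The count was 1 of 23 with detection required on at least 24 arrays, which removed NEFM O2550 and NEFH A_72_P433164, 1 of 20 in the deposited log2 table, where neither of these 2 was analysed, and 5 of 25 without the array of highest median signal, where NES A_72_P420249 and NEFL A_72_P683949 were added. Leaving out each pig in turn gave 2 to 5. The other settings gave 2 to 4. Among these, no filter on dim probes gave 2 of 29, with VIM at an adjusted p of 0.0612 and NEFM at 0.0640, and the variance analysis of the line alone gave 2, with NEFM at 0.0694. Within the HF diet the count of 1 became 0 with normexp, with no filter, with detection on at least 24 arrays, in the deposited table and with gene means. Within the LF diet it became 0 with detection on at least 24 arrays and in the deposited table, and 2 with the slide as a block. The probe behind the count of 1 was not analysed with detection on at least 24 arrays or in the deposited table. Counts for diet and for the interaction stayed at 0 with every alternative run. Of the 8 correlated pairs, 4 remained called with quantile normalization, 3 with normexp and 2 with the omission of the 2 farthest pigs. With slide means removed as well as group means, 5 of the 8 remained, although 8 pairs were called in that setting. The deposited log2 values allowed 36 pairs, of which 8 were called, and 5 of these were among the original 8. With 75th percentile scaling 6 remained, as they did without the array of highest median signal. The causes were not tested. Single line differences reversed in 2 cases, both far from the threshold. DES A_72_P177466 was 0.031 with quantile normalization and SYNC was -0.0033 with 75th percentile scaling. No paired analysis was possible because the labels give every pig the same replicate number, and the numbers used here only name pigs in the order listed. Dim spots limit NEFH, NEFM and NEFL, for which signals at background have no order.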
